A study of Rattus norvegicus with 102 samples.

Results

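The comparison covered every library labelled CA3 and every library labelled DG (dentate gyrus), 68 libraries in all, across all ages and maze groups. The other 34 libraries of the study were labelled CA1. Members were chosen by the subfield named in each library's title, which gave 34 CA3 and 34 DG libraries. Each of the 34 rats gave 1 library of each kind, so that every difference was taken within a rat. The animals were male Fisher 344 rats in 3 groups. The 10 young rats were 5 to 6 months old and the 24 aged rats 17 to 22 months, and the aged rats comprised 12 unimpaired and 12 impaired animals classed by the Morris water maze. From each animal 1 hippocampus was dissected, the dentate gyrus being teased away along the hippocampal fissure before the remaining tissue was cut into CA1 and CA3. CA2 was not isolated. Because the tissue was bulk, fewer cells of a type and less RNA per cell cannot be told apart for any gene named here.

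The dentate gyrus is built mainly of small, densely packed granule cells, and its axons, the mossy fibres, end on the large pyramidal cells of CA3. CA3 pyramidal cells excite each other through recurrent collaterals and send the Schaffer collaterals to CA1. The granule cell layer is known for Prox1, calbindin and dynorphin, and CA3 for a high density of kainate receptors and for the zinc-rich mossy fibre terminals in its stratum lucidum. Mossy cells lie in the hilus between both layers.

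Levels are normalised reads, that is reads divided by the size factor of the library, and a log2 change is CA3 minus DG on log2(normalised reads + 1), as a mean over rats ± its standard error. A gene was called when limma gave a Benjamini-Hochberg adjusted p below 0.05 in the same direction in both the Illumina and the Ion Proton poly-A tables. Values are from the Illumina table unless stated.

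The rats fell into 2 series by their number, 18 numbered below 9000 and 16 numbered from 9000 up, and many results differed between the series. Cell marker lists are given for each series, a named gene called in only 1 series is said to be so, and lists by function are counted over all rats unless a series is named. The labels do not say what the numbers stand for and give no site for a rat. The study's methods name sites with different suppliers, and their counts of young and aged rats per site are those of the series. Each series held all 3 groups, with 5 young, 6 unimpaired and 7 impaired rats below 9000 and 5, 6 and 5 from 9000 up. Scored on marker lists of the 3 subfields, 6 CA3 and 4 DG libraries lay nearer to another subfield than to their own in both poly-A tables. They came from 8 rats (3 young, 2 unimpaired, 3 impaired), all numbered from 9000 up. The CA3 and DG libraries of rat R9781 each lay nearest to the other's subfield in all 3 tables, and so did the CA1 and DG libraries of rat R9869. In the Illumina table a CA3 library held between 3246922 and 42750899 reads in genes, and a DG library between 5314377 and 41520164.

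Of 18 granule cell markers tested, 15 were lower in CA3 than in DG over all rats and 1 was higher, against 15.7% of all genes in each direction. The list holds Nhlh1, Plk5, Lnp1 and Dsp, the 4 markers given with the comparison, so the count is not independent of it. Nhlh1, which encodes a basic helix-loop-helix transcription factor, had the lowest fitted change of all called genes with a symbol that moved one way in at least 30 of the 34 rats. Its level in CA3 ran from 0 to 407.6 with a median of 10.1, against 20.1 to 565.7 with a median of 339.5 in DG. In the 18 rats below 9000 the subfields did not overlap, with at most 27.4 in CA3 and at least 75.8 in DG, whereas from 9000 up 3 rats had more in CA3 than in DG. The log2 change was -4.47 ± 0.43 (n = 34, limma adjusted p = 1.76e-10), lower in CA3 in 31 rats. It was -5.88 below 9000 and -2.89 from 9000 up, and the call held in each series.

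Plk5, a member of the polo-like kinase family, ran from 11.6 to 649.1 (median 53.4) in CA3 and from 54.7 to 2033 (median 801.1) in DG. Its change was -3.48 ± 0.33 (limma adjusted p = 1.32e-10). Lnp1 ran from 0 to 53.8 (median 7.22) in CA3 and from 11.2 to 158.2 (median 98.3) in DG, a change of -3.53 ± 0.35 (limma adjusted p = 2.8e-10). Dsp encodes desmoplakin, a protein that ties desmosomes to intermediate filaments. It ran from 23.9 to 649.6 (median 55.5) in CA3 and from 41.3 to 823.4 (median 452.1) in DG, a change of -2.65 ± 0.24 (limma adjusted p = 8.4e-11). Plk5, Lnp1 and Dsp were each lower in CA3 in 32 of 34 rats, and none of them overlapped between subfields in the rats below 9000. From 9000 up their changes were -2.11, -2.12 and -1.75, against -4.69, -4.79 and -3.44 below 9000.

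Tacr3, Htr2c and Galr1, receptors for peptides and serotonin, were higher in CA3. Tacr3, the receptor for neurokinin B, ran from 8.64 to 259.5 (median 125.3) in CA3 and from 2.29 to 99.7 (median 14.6) in DG. It was higher in CA3 in 33 of 34 rats, the exception being an unimpaired rat, and the change was 2.66 ± 0.26 (limma adjusted p = 2.6e-10). Htr2c, the serotonin 2C receptor, had medians of 1601 in CA3 and 249.2 in DG and changed by 2.20 ± 0.20 (limma adjusted p = 5.34e-11). Galr1, a receptor for galanin, had medians of 44.9 and 7.11 and changed by 1.99 ± 0.24 (limma adjusted p = 1.2e-08). For all 3 receptors the ranges of the subfields overlapped in both series, but the change was of like size in each: 2.87 and 2.42 for Tacr3, 2.25 and 2.15 for Htr2c, and 2.00 and 1.97 for Galr1, below 9000 and from 9000 up.

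**Figure D1:**
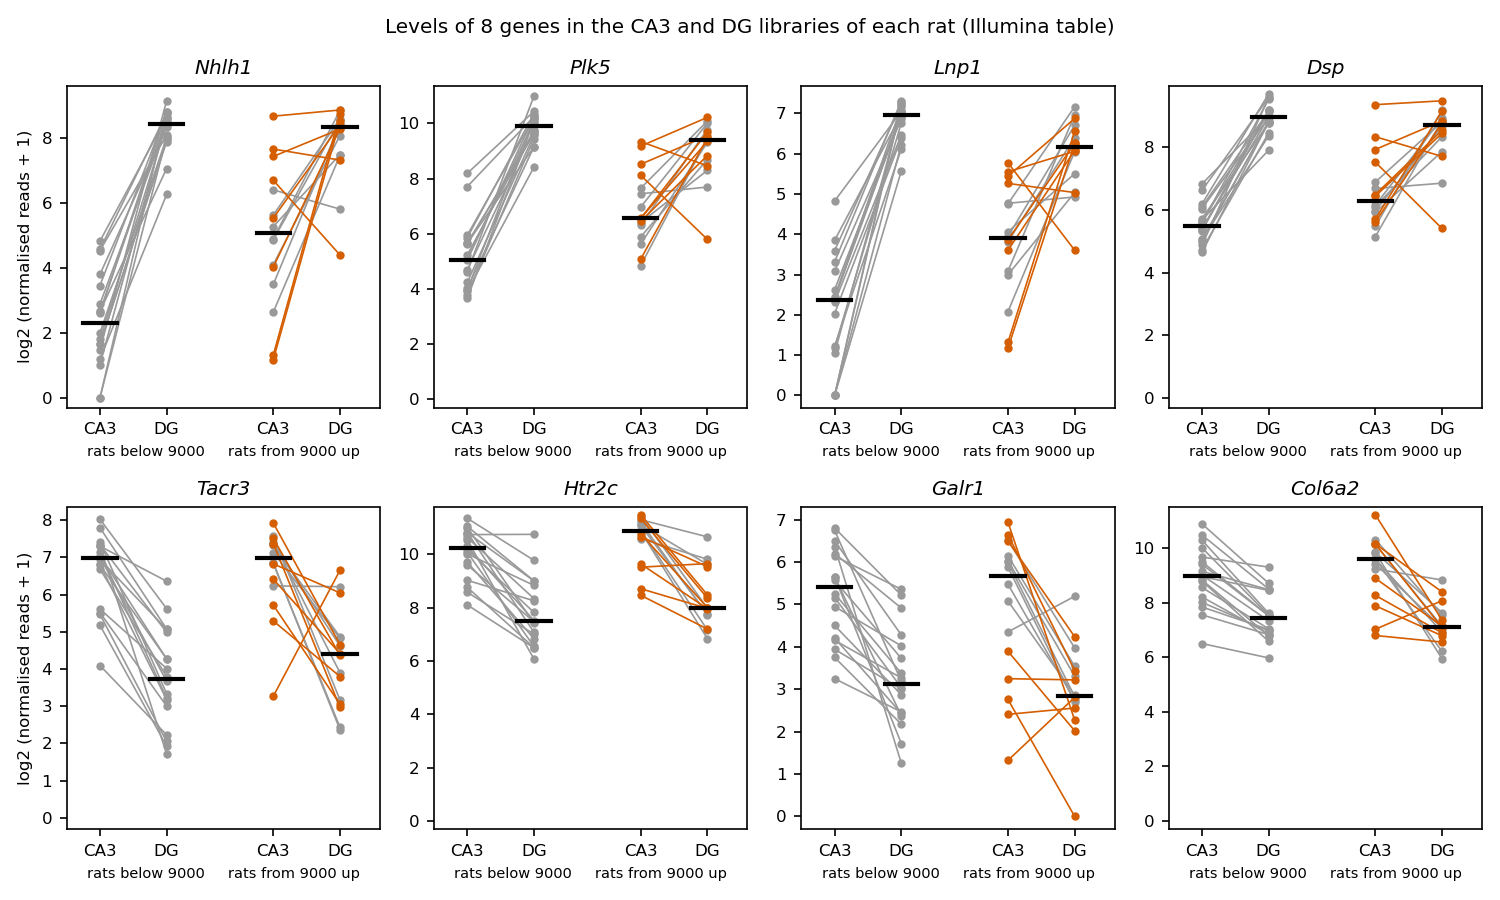
Levels of 8 genes as log2(normalised reads + 1), with each line joining the CA3 and the DG library of a rat, rats numbered below 9000 on the left and from 9000 up on the right of each panel. Orange lines are the 8 rats with a library nearer to another subfield and black bars are medians. Nhlh1, Plk5, Lnp1 and Dsp rise from CA3 to DG in all 18 rats below 9000, and Tacr3, Htr2c, Galr1 and Col6a2 fall from CA3 to DG in most rats of both series.

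The sequences just upstream of these genes are shown for 3 genes lower and 1 gene higher in CA3, because Nhlh1 belongs to the helix-loop-helix factors, a family that recognises E-boxes of the form CANNTG. Each window holds 250 bases before and 50 after the annotated start, 5′ to 3′ on the strand of the gene, from RefSeq on GRCr8, a newer build than the rn5 of the read counts. Capitals mark CAGCTG, or CAGATG on either strand. The windows are chr13:87054885-87055184 (minus strand) for Nhlh1, chr17:26877072-26877371 (minus) for Dsp, chr3:137366454-137366753 (minus) for Pdyn and chr2:225940247-225940546 (plus) for Tacr3.
Nhlh1: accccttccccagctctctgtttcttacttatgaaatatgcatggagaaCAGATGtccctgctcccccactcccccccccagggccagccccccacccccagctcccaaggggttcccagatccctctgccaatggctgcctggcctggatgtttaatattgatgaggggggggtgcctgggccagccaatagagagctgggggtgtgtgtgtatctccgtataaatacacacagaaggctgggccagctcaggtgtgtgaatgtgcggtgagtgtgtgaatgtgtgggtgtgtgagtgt
Dsp: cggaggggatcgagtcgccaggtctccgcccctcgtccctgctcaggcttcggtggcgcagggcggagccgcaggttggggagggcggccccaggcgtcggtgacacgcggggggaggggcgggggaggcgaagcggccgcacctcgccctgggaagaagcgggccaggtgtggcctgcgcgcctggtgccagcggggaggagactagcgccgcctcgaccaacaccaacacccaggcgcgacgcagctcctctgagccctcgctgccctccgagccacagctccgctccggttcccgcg
Pdyn: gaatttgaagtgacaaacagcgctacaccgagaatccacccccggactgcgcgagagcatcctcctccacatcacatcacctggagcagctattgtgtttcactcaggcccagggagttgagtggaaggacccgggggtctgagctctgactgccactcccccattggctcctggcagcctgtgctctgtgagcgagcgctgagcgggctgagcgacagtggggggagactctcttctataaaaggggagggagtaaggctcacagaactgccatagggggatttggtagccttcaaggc
Tacr3: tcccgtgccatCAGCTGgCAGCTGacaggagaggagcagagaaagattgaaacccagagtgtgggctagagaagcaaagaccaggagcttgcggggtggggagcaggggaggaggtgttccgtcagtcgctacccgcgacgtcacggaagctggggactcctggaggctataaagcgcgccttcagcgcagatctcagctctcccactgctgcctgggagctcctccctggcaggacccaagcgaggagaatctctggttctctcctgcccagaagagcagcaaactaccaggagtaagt
The Nhlh1 window held 1 CAGATG and that of Tacr3 held 2 copies of CAGCTG, and neither word occurred in those of Dsp and Pdyn. Other words of the form CANNTG were not marked or counted. Of these, CAGGTG or its reverse complement CACCTG occurs in the windows of Nhlh1, Dsp and Pdyn. CAGCTG was found in 15.1% of all 33469 promoters of that length and in 18.7% of the 150 promoters of called genes lower in CA3 by more than 1 log2 unit. It was also in 17.5% of the 143 promoters of those higher by that much. CAGATG or its reverse complement CATCTG was in 16.6% of all promoters and in 12.7% and 20.3% of those groups.

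Over all genes, 4353 of the 13875 tested in both tables were called (31.4%), of which 2178 were lower in CA3 (15.7%) and the others higher (15.7%). The median change of all genes was 0.008, the median absolute change was 0.132 over all genes and 0.34 over the called genes, and 360 called genes changed by more than 1 log2 unit. Within the rats below 9000 that count was 809, within those from 9000 up it was 264, and without the 8 rats it was 568. No gene separated all 34 CA3 from all 34 DG libraries. Without the 8 rats, 3974 of 13841 genes were called (28.7%), and 16 genes separated the 26 CA3 from the 26 DG libraries (0.115%), 1 of them higher (0.00721%) and 15 lower (0.108%) in CA3. The 8 rats were picked by marker lists that hold genes of this contrast, so the values over 26 rats are not independent of it. The gene higher in CA3 was Sertm1, named after its values were seen, with 927.8 to 1855 in CA3 and 222.1 to 883.1 in DG over those rats, and it changed by 1.57 below 9000 and had a value of 0.88, not called, from 9000 up.

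Within the 18 rats below 9000, 3770 genes were called (27.3%), and in 988 (7.12%) the CA3 and DG libraries did not overlap, 520 higher (3.75%) and 468 lower (3.37%) in CA3. Within the 16 rats from 9000 up, 2866 genes were called (20.6%), 1424 higher (10.2%) and 1442 lower (10.4%). Only 3 genes did not overlap there (0.0216%), 1 higher (0.00721%) and 2 lower (0.0144%) in CA3. Both series called 994 genes, 26.4% of the genes called below 9000 and 34.7% of those called from 9000 up. Of these, 828 had the same direction, 355 higher and 473 lower in CA3, and 166 had opposite directions. A test of the difference between the series, added after the data were seen, called 2728 of 13875 genes (19.7%), including 1260 of the 4353 genes called over all rats. Without the 8 rats it called 1596 of 13841 (11.5%).

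**Figure D2:**
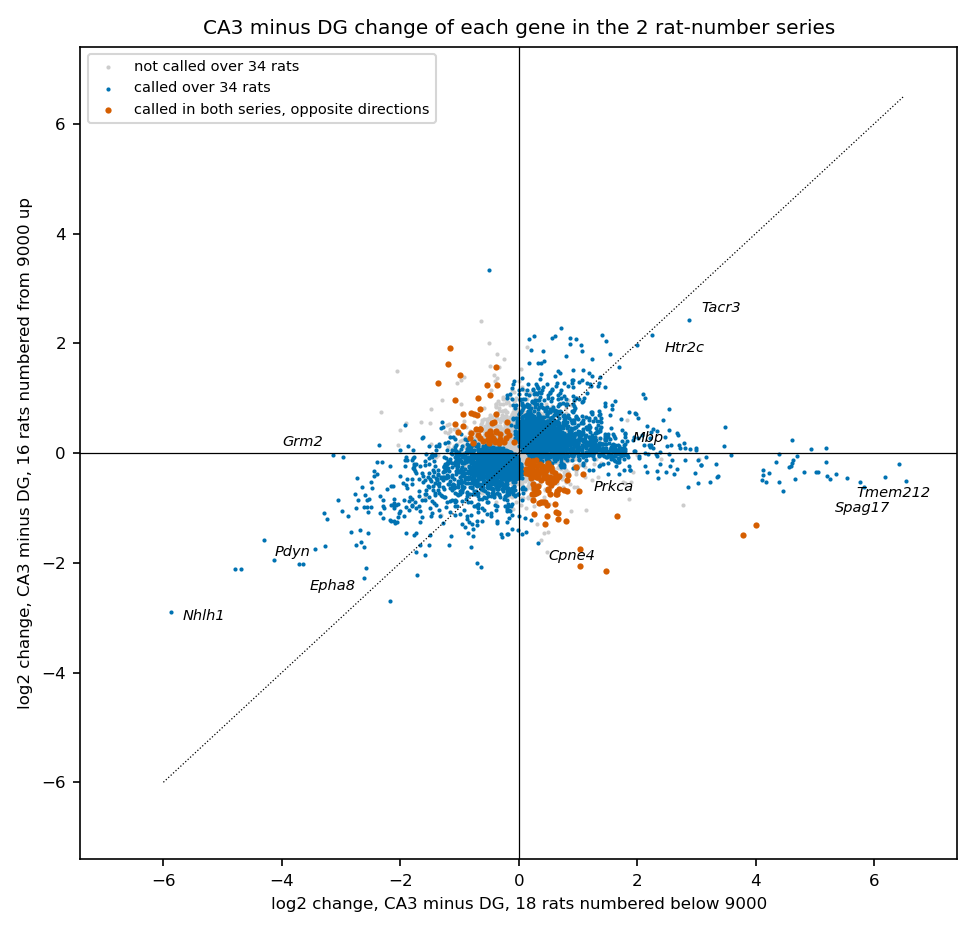
Log2 change, CA3 minus DG, of each gene in the 18 rats numbered below 9000 (x axis) and in the 16 rats from 9000 up (y axis), with equal changes on the dotted line. Blue points were called over 34 rats, grey points were not, and orange points are the 166 genes called in both series in opposite directions. Tacr3 and Htr2c lie close to the dotted line, Tmem212 and Spag17 far to the right near a change of 0 on the y axis, and Prkca among the orange points.

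In all 34 rats, rat R9781 included, 7 called genes moved the same way, and 3 of them, picked after their values were seen, are described here. Of these, Tmem114 and Alk fall outside the rule for named genes given below. Tmem114 was lower in CA3, with a change of -1.66 ± 0.17 (limma adjusted p = 3.42e-10), and changed by -1.66 and -1.67 in the series below and from 9000. Its range from 9000 up was 0 to 17.8 in CA3 and 18.6 to 51.9 in DG, so that it was 1 of the 3 genes without overlap there. Alk, a receptor tyrosine kinase, was higher in CA3 by 0.82 ± 0.06 (limma adjusted p = 5.77e-12), by 0.97 and 0.65 in the series. Sema4g, a membrane-bound semaphorin, was higher by 0.53 ± 0.05 (limma adjusted p = 5.38e-11), by 0.47 and 0.59.

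The granule cell list, of which 2 members were not called, had a median change of -1.59 against 0.008 for all genes. Below 9000 the count was 15 lower and 0 higher (median -2.30, 13 without overlap), and from 9000 up it was 11 lower and 1 higher (median -0.91). The 4 markers given with the comparison were among those 13. Prox1, the homeobox factor that granule cells need for their identity, had medians of 177.4 in CA3 and 1200 in DG below 9000, and of 221.3 and 1023 from 9000 up. It changed by -2.18 ± 0.21 (limma adjusted p = 1.78e-10). C1ql2, a secreted C1q-like protein of mossy fibre synapses, had medians of 201.1 and 1784 and changed by -3.11 ± 0.33 (limma adjusted p = 1.23e-09). Calb1 (calbindin), a calcium buffer of mature granule cells, changed by -1.34 below 9000, and its value from 9000 up was 0.16, not called. Sema5b was the member higher in CA3, by 0.56 over all rats and by 0.94 from 9000 up, and its value below 9000 was 0.23, not called.

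The CA3 marker list gave a much weaker separation, and it went against the label in part of the libraries. Over all rats 5 of 14 members were higher, 1 lower and 8 not called (median 0.22). Below 9000, 12 of 14 were higher and none lower (median 0.53), while from 9000 up 3 were higher and 6 lower (median -0.29). Grik4, a high-affinity kainate receptor subunit of CA3 cells, had a median of 2435 in CA3, 1945 in DG and 682 in CA1 below 9000. From 9000 up the libraries labelled CA3 had a median of 997.2 against 1830 in DG and 895.8 in CA1, and 15 of 16 rats had less Grik4 in CA3 than in DG. The change was 0.34 (limma adjusted p = 3.27e-05) in the first series and -0.91 (limma adjusted p = 0.000163) in the second, and -0.25 over all rats, where it was not called. Cpne4, a copine, had a value of 0.33, not called, below 9000 and fell by 1.64 on the log2 scale from 9000 up, and the difference between the series passed the test for both genes (adjusted p = 4.3e-08 for Grik4 and 3.83e-07 for Cpne4 in limma). Nnat (neuronatin) was the more even member, with CA3 medians of 9184 and 9290 and DG medians of 3869 and 4127 in the series. Spock1, a proteoglycan, changed by 0.90 below 9000, and its value from 9000 up was -0.12, not called.

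CA1 markers were higher in the CA3 than in the DG libraries in 4 of 7 and lower in none (median 1.06). From 9000 up 4 were higher and 0 lower (median 1.34), and below 9000, 3 were higher and 1 lower (median 0.66). The lower member was Ndst4, named after its values were seen, which changed by -0.97 below 9000 and had a value of 0.12, not called, over all rats. Mpped1 had medians of 2071 in CA3, 1234 in DG and 5846 in CA1 below 9000, and of 4148, 1031 and 4736 from 9000 up. Wfs1 had a value of 0.19 ± 0.23 and was not called. Of 8 CA2 markers 4 were higher and 2 lower, with 5 higher and 2 lower below 9000 (median 0.70) and 0 higher and 1 lower from 9000 up (median -0.25). Amigo2, an adhesion protein, had 217.5 to 394.8 in CA3 and 75.8 to 193.4 in DG below 9000, without overlap, and medians of 178.2 and 180.1 from 9000 up. Cacng5, an auxiliary subunit of AMPA receptors, changed by 2.55 below 9000, Stard5 by 1.47 and Rgs14 by 0.98. From 9000 up their values were -0.23, 0.33 and -0.27, none called. Pcp4 fell by 0.27 on the log2 scale over all rats and by 0.26 below 9000, and its value from 9000 up was -0.28, not called.

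**Figure D3:**
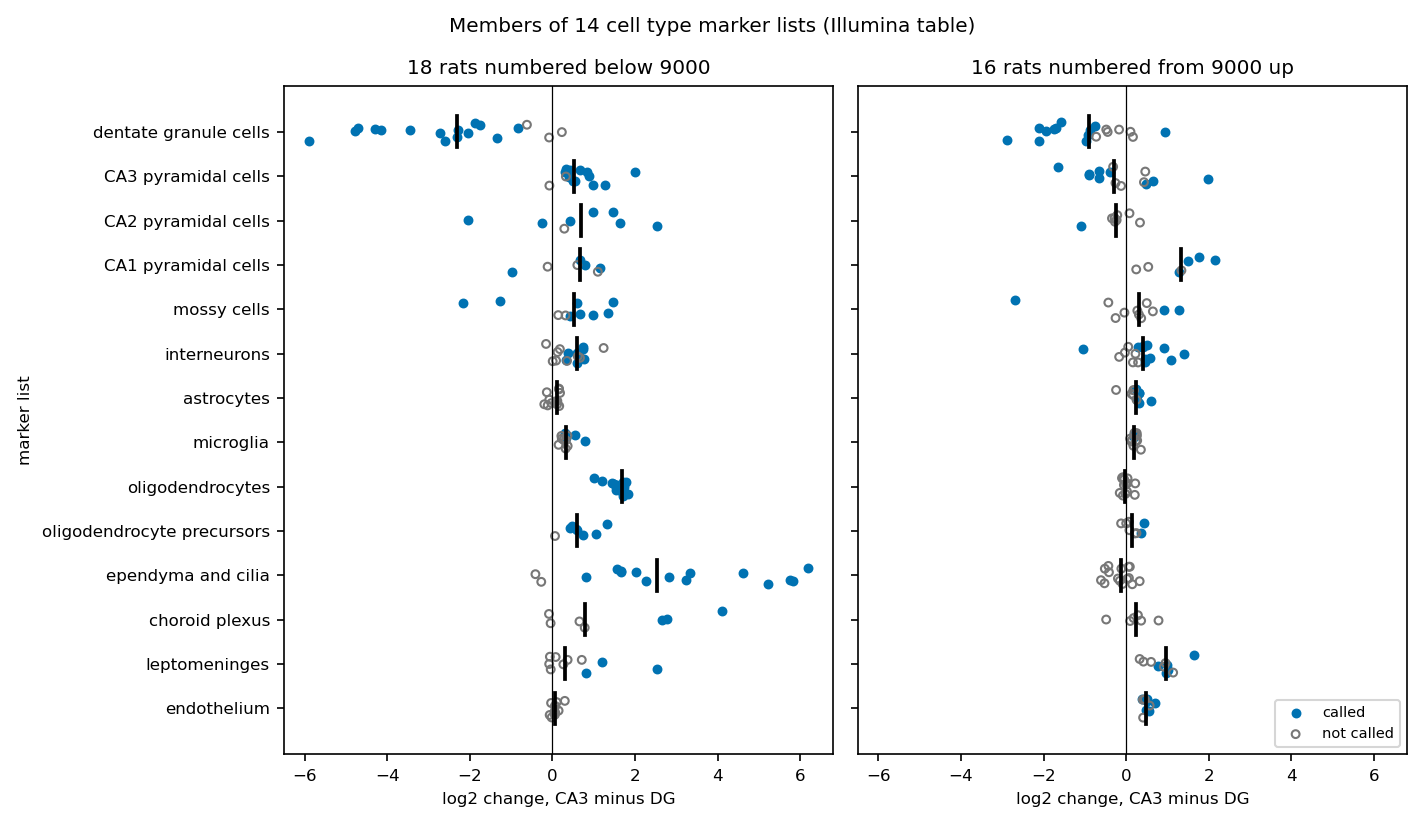
Log2 change, CA3 minus DG, of the members of 14 cell type marker lists in the rats numbered below 9000 (left) and from 9000 up (right). Filled points were called in that series, open points were not, and black bars are list medians. Most granule cell markers lie left of 0 in both panels, while oligodendrocyte and ciliary markers lie right of 0 on the left and around 0 on the right.

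Markers of oligodendrocytes, their precursors, ciliated cells and microglia moved with the comparison over all rats, with 14 of 14, 7 of 8, 14 of 16 and 8 of 12 higher in CA3 against 15.7% of all genes, and their part in the other results was not tested. All 14 oligodendrocyte markers were higher in CA3 (median 0.85), and the summed level of the list ran from 60350 to 416400 in CA3 (median 168800) and from 49880 to 237900 in DG (median 82740). Mbp, a main protein of myelin, had 63860 to 197200 in CA3 and 22090 to 40230 in DG below 9000, and medians of 60350 and 59930 from 9000 up. The values were 1.75, called, and 0.02, not called, and the difference between the series passed the test (limma adjusted p = 1.08e-07). All 14 members were without overlap below 9000, and 0 of 14 were called from 9000 up. Markers of the precursors of these cells were higher in CA3 in 7 of 8 over all rats, in 7 below 9000 (median 0.59) and in 2 from 9000 up (median 0.14). Cspg4 and Pdgfra changed by 0.43 each, Cspg4 by 0.42 and 0.44 in the series.

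Genes of motile cilia, which line the ventricle on ependymal cells, were among the largest changes in the rats below 9000. Of 16 genes 14 were higher in CA3 over all rats (median 1.30), 14 below 9000 (median 2.54) and 0 from 9000 up (median -0.12). Tmem212 had 48.7 to 234 in CA3 and 0 to 4.58 in DG below 9000, and medians of 20.3 in CA3 and 23.8 in DG from 9000 up. Spag17, a protein of the ciliary central pair, had 39.7 to 148.5 in CA3 and 0 to 2.29 in DG below 9000, and medians of 9.95 and 18.9 from 9000 up. The ranges below 9000 were far apart and those from 9000 up overlapped widely. Over 34 rats their changes were 3.08 ± 0.61 (limma adjusted p = 5.88e-05) and 2.80 ± 0.59 (limma adjusted p = 0.00013). Ak7 and Cfap43 followed the same course, with changes of 5.76 and 5.21 below 9000 and values of -0.53 and -0.42, not called, from 9000 up. Of 7 choroid plexus genes 3 were higher in CA3, namely Ttr (transthyretin, 1.58), Folr1 (1.94) and Clic6 (1.56). Below 9000 these 3 were called (median of the list 0.78), and from 9000 up none was (median 0.23). Folr1 changed by 4.10 below 9000, and its value from 9000 up was -0.49, not called.

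The counts of cell marker lists are read against all genes, of which 15.7% were called in each direction over all rats. The shares higher and lower were 14.6% and 12.7% below 9000, and 10.2% and 10.4% from 9000 up. A count near its share, as for endothelial and blood genes over all rats, is no result about a list. The leptomeningeal list had 4 of 11 members higher in CA3, 3 below 9000 (median 0.32) and 5 from 9000 up (median 0.95), none lower. The endothelial list had 2 of 11 members higher over all rats, 0 below 9000 (median 0.06) and 7 from 9000 up (median 0.48), none lower. The summed leptomeningeal level reached 164300 in the CA3 library of rat R9876, against a median of 4296, and at most 16650 without the 8 rats. Dcn (decorin) changed by 1.65 from 9000 up and had a value of 0.37, not called, below 9000. Lum (lumican) changed by 2.53 below 9000 and had a value of 0.42, not called, from 9000 up. Microglial markers were higher in 8 of 12 over all rats (median 0.26), in 4 below 9000 and in 2 from 9000 up. Cx3cr1 was higher by 0.31 and P2ry12 by 0.27, and each was called in only 1 series, Cx3cr1 below 9000 at 0.34 and P2ry12 from 9000 up at 0.20. Astrocyte markers were higher in 4 of 12 (median 0.11), in 0 below 9000 (median 0.10) and in 6 from 9000 up (median 0.24), none lower. Gfap (-0.03) and Aqp4 (0.16) were not called. Haemoglobin and other blood genes were higher in 1 of 6 over all rats, in 0 below 9000 (median 0.15) and in 5 from 9000 up (median 0.66). Thalamic and habenular genes were higher in 3 of 8 and in 2 in each series. Striatal genes were higher in 3 and lower in 3 of 8, with 3 and 4 below 9000 (median -0.54) and 3 and 0 from 9000 up (median 0.35). Subicular genes were higher in 2 and lower in 3 of 8, with 1 and 3 below 9000 and 1 and 4 from 9000 up.

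Interneuron markers were higher in CA3 in 12 of 17 and lower in 1 (median 0.39), with 8 higher and 0 lower below 9000 and 10 higher and 1 lower from 9000 up. Tac1, the precursor of substance P, had medians of 90.7 in CA3 and 31.3 in DG and changed by 1.32 ± 0.15 (limma adjusted p = 5.5e-09). Below 9000 its value was 1.24, not called, and from 9000 up it was called. Pvalb (parvalbumin) changed by 0.59, with a value of 0.67, not called, below 9000, Crhbp by 0.60 and Htr3a by 0.82. Gad1, the enzyme that makes GABA, had a value of 0.07 and was not called. Markers of mossy cells, which belong to the hilus, were split, with 6 of 11 higher and 2 lower in CA3 (median 0.45), the same counts below 9000, and 2 higher and 1 lower from 9000 up. Drd2, a dopamine receptor of mossy cells, ran from 24.1 to 136.2 (median 49.5) in CA3 and from 4.58 to 261.9 (median 18.4) in DG, and changed by 1.32 ± 0.17 (limma adjusted p = 3.3e-08). Nmb (neuromedin B) ran from 1.62 to 131.8 (median 18.6) in CA3 and from 16 to 215.9 (median 111.1) in DG. It changed by -2.42 ± 0.23 (limma adjusted p = 1.96e-10), lower in CA3 in 33 of 34 rats and by -2.17 and -2.69 in the series. Of 12 genes of newborn neurons and proliferation 5 were higher, Dcx by 0.41, and 2 lower, Mki67 by -0.67 and Neurod1 by -0.84. Below 9000, 4 were higher and 2 lower (median 0.44), and from 9000 up 0 higher and 1 lower (median 0.15), where Dcx had a value of 0.28 and Mki67 of -0.33, neither called.

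The lists by function that follow are read against all genes, of which 31.4% were called, 15.7% in each direction, and a count near those shares is no result about a list. Transcription factors of neurons were divided evenly, 10 higher and 11 lower of 31. Besides Nhlh1 and Prox1, Rfx3 (-1.52) and Glis3 (-1.22) of the granule cell list were lower, while Meis2, Plagl1 and Sox5 were higher. Glis3 and Plagl1 were called below 9000, at -1.88 and 1.57, and from 9000 up their values were -0.48 and 0.81, not called. Meis2, a TALE homeobox factor, had no overlap below 9000 and changed by 1.73 there, and its value from 9000 up was 0.62, not called. Sox5 changed by 1.22 and 0.75 and was called in both.

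Glutamate receptors differed by subunit. Of 18 ionotropic subunits 4 were higher and 7 lower in CA3. Grin3a, a glycine-binding NMDA receptor subunit, had medians of 151.9 in CA3 and 62.6 in DG and changed by 1.05 ± 0.11 (limma adjusted p = 1.45e-09). Grik1, a kainate receptor subunit, was higher by 0.68, while Grik2 and the AMPA receptor subunit Gria2 were lower, by -0.40 and -0.36, and these changes kept their direction and call in each series. Of 7 metabotropic receptors 3 were lower and 1 higher. Grm2, an inhibitory receptor on mossy fibre terminals, changed by -3.14 below 9000 with no overlap, and its value from 9000 up was -0.03, not called.

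GABA-A receptor subunits were lower in 6 of 12 and higher in 1. Gabrd, the delta subunit of extrasynaptic receptors, had 42.3 to 211.1 in CA3 and 356.5 to 797.1 in DG below 9000, and medians of 274.2 and 511.2 from 9000 up. It changed by -1.61 ± 0.19 (limma adjusted p = 1.03e-08). Gabra4, which pairs with it in granule cells, changed by -0.86. Gabrg3 was the member higher in CA3, by 0.86.

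Potassium channels were lower in 21 and higher in 11 of 53 (median -0.18), and calcium channels, stores and pumps lower in 14 and higher in 5 of 31 (median -0.28). Kcnc4, a fast delayed rectifier, changed by -2.01 below 9000, and its value from 9000 up was -0.41, not called. Kcns2, a modifier subunit, changed by -1.05 and -0.96. Kcnf1 had a value of 0.18, not called, below 9000 and changed by 2.08 from 9000 up. Cacna1d, an L-type calcium channel, fell by 0.78 on the log2 scale over all rats and by 1.17 below 9000, and its value from 9000 up was -0.33, not called. Of 11 sodium and HCN channel genes 3 were higher and 1 lower over all rats and below 9000, and 3 higher and 4 lower from 9000 up. Calcium buffers and sensors were lower in 5 and higher in 3 of 17. Kinases and phosphatases of calcium and cAMP signalling were lower in 17 and higher in 9 of 33, and from 9000 up lower in 15 and higher in 3. Adcy1, the calcium-stimulated adenylyl cyclase, had medians of 1398 and 5437 and changed by -1.73 ± 0.19 (limma adjusted p = 3.41e-09). Pde7b, a cAMP phosphodiesterase, changed by -1.51, and Camkk1, a kinase upstream of CaMKI and CaMKIV, by -0.84 in 33 of 34 rats.

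Secreted peptides and growth factors were higher in 9 and lower in 9 of 24, with 4 higher and 8 lower below 9000 and 7 higher and 6 lower from 9000 up. Pdyn, the dynorphin precursor, ran from 34.9 to 1660 (median 226.1) in CA3 and from 179.8 to 3944 (median 2300) in DG, without overlap below 9000. It changed by -3.02 ± 0.31 (limma adjusted p = 7.68e-10), lower in CA3 in 32 of 34 rats. Penk, the enkephalin precursor, changed by -1.11, the neurotrophin Ntf3 by -1.59 and Bdnf by -1.05 ± 0.09 (limma adjusted p = 1.85e-11), and the call for Bdnf held in each series. Penk changed by -1.41 below 9000 and had a value of -0.77, not called, from 9000 up. Cck (cholecystokinin) was higher by 0.85. Of 46 receptors for peptides and monoamines 16 were higher and 9 lower, the largest rises being Tacr3, Htr2c, Galr1 and the dopamine receptor Drd5 (1.39). Drd5 had a value of 0.87, not called, below 9000 and changed by 1.98 from 9000 up. Htr1a, the serotonin 1A receptor, changed by -0.92 over all rats and by -1.13 below 9000, and its value from 9000 up was -0.68, not called. Among 16 neurotrophin and corticosteroid receptors 3 were higher and 2 lower, with 6 and 1 below 9000 and 1 and 4 from 9000 up, and the count over all rats is near the share of all genes.

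Of 19 ephrins and Eph receptors 8 were higher and 7 lower. Epha8 ran from 85.2 to 1631 (median 240.2) in CA3 and from 510.2 to 3673 (median 1489) in DG and changed by -2.45 ± 0.19 (limma adjusted p = 6.69e-12), lower in 33 of 34 rats. Epha7 had medians of 615.2 and 1949 and changed by -1.49 ± 0.12 (limma adjusted p = 8.81e-12), by -1.50 and -1.49 in the series. Efna5, an ephrin, was higher by 0.83. Robo3, a receptor of the slit receptor family, had medians of 107.0 and 597.7 and changed by -2.35 ± 0.19 (limma adjusted p = 8.81e-12), by -2.58 and -2.10 in the series. The difference between the series did not pass the test for Epha8, Epha7 or Robo3 (adjusted p = 0.477, 0.973 and 0.283 in limma). Of 16 slits, netrins and receptors 6 were lower, Unc5d by -1.24, and 3 higher, with 6 lower and 6 higher below 9000 and 4 lower and 1 higher from 9000 up. Unc5b changed by 1.23 below 9000, and its value from 9000 up was 0.20, not called. Semaphorins, plexins and neuropilins were higher in 11 and lower in 7 of 28, and Sema5a changed by -1.69, by -1.91 and -1.45 in the series.

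Synaptic organisers were lower in 9 and higher in 6 of 30, Lrrtm4 by -1.18 and Cbln4 by 0.98, a gene called below 9000 and not from 9000 up. Presynaptic vesicle proteins were lower in 13 and higher in 9 of 39, with 14 and 10 below 9000 and 10 and 3 from 9000 up. Unc13c, a vesicle priming factor, changed by -2.08 and Slc30a3, the transporter that loads zinc into synaptic vesicles, by -1.40 ± 0.12 (limma adjusted p = 3.02e-11), with medians of 1038 in CA3 and 3049 in DG. Syt9, a synaptotagmin, was higher by 1.19. Cadherins and protocadherins were higher in 8 and lower in 6 of 25, and junction proteins higher in 3 of 11, with Dsp the member that fell. Of the junction proteins 6 were higher and 1 lower below 9000, and 2 higher and 2 lower from 9000 up. Wnt and BMP genes were higher in 7 and lower in 5 of 31, with Smad3, a transducer of TGF-beta signals, at -1.84, the Wnt receptor Fzd1 at 0.71 and the Wnt antagonist Sfrp2 at 0.82. Sfrp2 changed by 1.69 below 9000, and its value from 9000 up was -0.16, not called. Of 35 collagens and matrix proteoglycans 9 were higher and 4 lower. Col6a2, a chain of collagen VI, had medians of 641.5 in CA3 and 139.9 in DG and changed by 1.75 ± 0.18 (limma adjusted p = 8.53e-10), higher in CA3 in 33 of 34 rats.

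Activity-dependent early genes were lower in 7 and higher in 5 of 24 (median 0.09), with 6 lower and 1 higher below 9000 and 4 lower and 6 higher from 9000 up. Ptgs2, the inducible cyclooxygenase, changed by -1.32 ± 0.13 (limma adjusted p = 1.73e-10), lower in CA3 in 33 of 34 rats and by -1.15 and -1.51 in the series. Btg2 changed by -1.16 below 9000, and its value from 9000 up was -0.51, not called. Egr2 had a value of 0.30, not called, below 9000 and changed by 1.08 from 9000 up. None of the 75 cytosolic ribosomal protein genes was called over all rats (median 0.08), while 3 were lower below 9000 and 10 higher from 9000 up. Of 74 nuclear genes of the respiratory chain, Sdha was higher by 0.10 and Ndufv3 lower by 0.11, neither called within a series. Mitochondrially encoded transcripts had only 0 values in the Ion Proton data and so were not tested. Their share of the reads in the Illumina table had medians of 10.9% in CA3 and 11.1% in DG below 9000, and of 15.7% and 11.7% from 9000 up. It was higher in CA3 in 7 of 18 rats below 9000 and in 15 of 16 from 9000 up, and in the WT table in 3 of 18 and 12 of 16. Its part in the differences between the series was not tested.

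Among the other genes with the largest changes in at least 30 rats, Otog (-2.92), Piezo2, a mechanosensitive channel (-2.88), and Sec14l4 (-2.53) were lower in CA3. Ptpru, a receptor tyrosine phosphatase (1.62), Prokr2, a prokineticin receptor (1.62), Fam179a (1.61), Tnnt2 (1.49), Tpbg (1.48) and Cntnap3 (1.48) were higher. Tnnt2 was not tested in the rats below 9000, and Otog and Prokr2 changed by -3.71 and 2.09 there and had values of -2.02 and 1.08, not called, from 9000 up.

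Of the genes called over all rats, 2 were called in the opposite direction from 9000 up. Prkca, protein kinase C alpha, had 2536 to 4437 in CA3 and 1196 to 1950 in DG below 9000, without overlap, and medians of 1625 and 2079 from 9000 up. Adcy2, an adenylyl cyclase named after its values were seen, had 776.3 to 1385 in CA3 and 1531 to 2249 in DG below 9000, and medians of 2003 and 1801 from 9000 up. The changes were 1.09 and -0.38 for Prkca and -0.77 and 0.18 for Adcy2, and the difference between the series passed the test for both (adjusted p = 4.28e-10 and 2.97e-11 in limma).

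Rats differed in how many of the genes followed the overall direction. Of the 360 called genes with a change over 1 log2 unit, 0.3% to 12.2% were reversed in each of the 18 rats below 9000. From 9000 up the share ran from 0% in rat R9780 to 81.9% in rat R9781, and R9782 (5.3%), R9862 (8.6%) and R9869 (10.8%) lay within the range of the rats below 9000. The DG library of rat R9869 is 1 of the 10 that lay nearer to another subfield. Rat R9881 had 63.6% reversed. Its CA3 and DG libraries lay nearest to their own subfields in the Illumina table, but its CA3 library lay nearest to CA1 in the Ion Proton table. The rats entered the fit that chose these genes, so the shares are a description.

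Whether the CA3 minus DG difference depended on age or on maze class was tested on the differences of each rat, in the Illumina table. In limma 0 of 14150 genes (0.0%) were called for age, with 226 (1.6%) at an unadjusted p below 0.05, and 219 (1.55%) in edgeR, which also called 0. With no dependence in any gene, a share near 0.05 would be reached. The 226 became 371 (2.62%) without rat R9881 and 352 (2.49%) with the number series as a covariate. For maze class 0 of 14144 genes (0.0%) were called among the aged rats, with 390 (2.76%) at an unadjusted p below 0.05, and 379 (2.7%) in edgeR, which also called 0. The 390 became 787 (5.57%) without rat R9865, 259 (1.83%) without rat R9781 and 979 (6.92%) with the number series as a covariate, where the smallest adjusted p was 0.68 in limma. The smallest p values for age belonged to Fas (-1.01, old minus young, unadjusted p = 0.00161 in limma), Rap2c (0.15) and Ahr (-0.40), none called for age. For maze class the smallest p values belonged to Gsta4 (-0.54, impaired minus unimpaired, unadjusted p = 0.000314 in limma), Pcdhb4 (0.51) and Trim65 (-0.37), none called for maze class. Gsta4 was -0.87 in the Ion Proton table and -0.16 in the WT table.

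**Figure D4:**
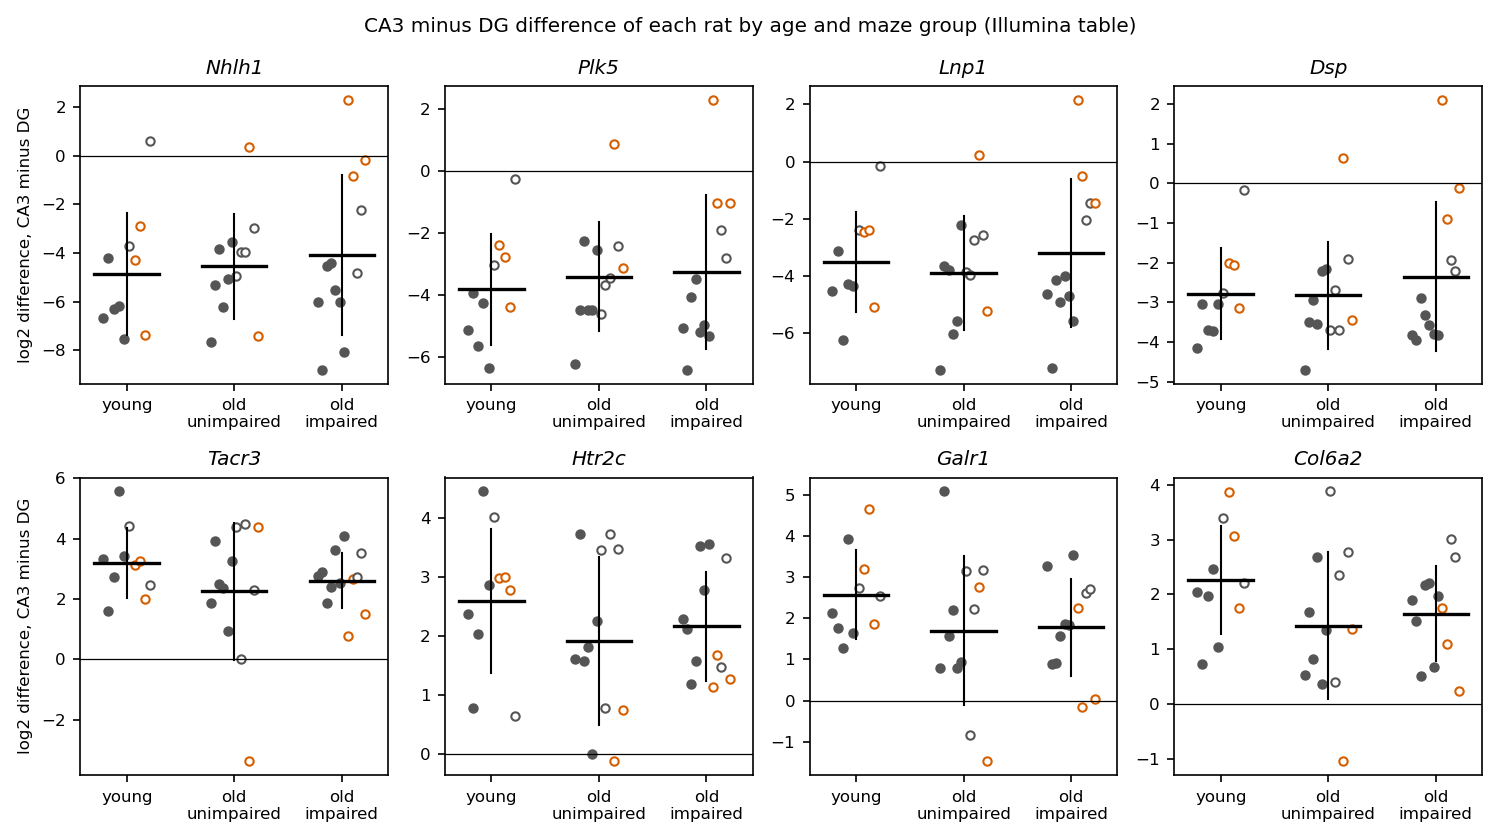
CA3 minus DG log2 difference of each rat for 8 genes in the young, old unimpaired and old impaired rats, with the mean (thick bar) and 1 SD (line). Filled points are rats numbered below 9000, open points rats from 9000 up, and orange outlines mark the 8 rats with a library nearer to another subfield. The 3 groups overlap for every gene shown, and the rats nearest to 0 for Nhlh1, Plk5, Lnp1 and Dsp are open points.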

How the data were processed

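The deposited tables held gene signal values, namely read counts divided by 1 DESeq2 size factor per library by the authors, from reads assigned to rn5 genes. The Illumina poly-A libraries were sequenced on a HiSeq and processed, per the submitters' processing notes, with bcl2fastq 2.17, cutadapt 1.8.3, STAR 2.5, featureCounts 1.4.4 and DESeq2 1.16.1, where the study's methods name another DESeq2 version. The Ion Proton reads were aligned with TopHat2 and Bowtie2. The aligner and library type of the WT table are not given in the sources used here. The sources name different kits for the Illumina libraries, so whether counting used strand is unknown, and reads of overlapping antisense genes cannot be told apart. Every value above 0 was a whole multiple of 1 read (100.0% of values in each table, within a relative tolerance of 1e-06), which gave the library depths.

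Log2(value + 1) was fitted with limma 3.58.1 (trend) for genes with a mean of at least 10, with the rat as a block because both libraries came from 1 animal. Deviations of the CA3 and DG libraries of a rat correlated with a median r of 0.09 (range -0.445 to 0.654). A fold change on this scale understates that of low genes. The pseudocount, filter, normalisation, table, test (edgeR 4.0.16 and DESeq2 1.42.0 on the recovered reads) and rats were varied. The limma, edgeR and DESeq2 fits of the subfield contrast, and the limma and edgeR fits of age and maze class, were tested on simulated data. The other steps were not. Named were the 4 markers, the 10 largest called changes each way in at least 30 rats, and of each list the first members and the largest called ones. Sertm1, Tmem114, Alk, Adcy2 and Ndst4 fall outside that rule. The comparison and the gene lists were chosen with earlier results of these data known. The tables were used with R 4.3.3 and Python 3.11.15. Some members of the lists are counted but not reported here by name.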

Additional observations from a re-analysis of the deposited data

Results flagged for a closer look

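The CA3 minus DG difference differed between the rats numbered below 9000 and those from 9000 up in 2728 of 13875 genes, by a limma test of the difference itself on the values of each rat, called in both poly-A tables. The test was added after the data were seen. Without the 8 rats that had a library nearer to another subfield it called 1596 genes. From 9000 up the share of mitochondrially encoded reads was higher in CA3 in 15 of 16 rats of the Illumina table, against 7 of 18 below 9000, and its part was not tested. The number series and anything else that went with it, such as a site or supplier, cannot be told apart.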

How the results depend on the processing

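The count of genes that differed between CA3 and DG, 4353, ran from 4072 to 4679 when each rat was left out in turn. It was 4117 without the rat as a block, a fit that shared 4010 of the called genes. It moved by over 1.5 times to 2866 in the rats from 9000 up, to 1560 in the young, 1242 in the old unimpaired and 353 in the old impaired rats alone, where fewer rats entered the fit. The Illumina table alone called 8120 genes, since a call then needed 1 table. Age and maze class called 0 genes under every alternative run, and 0 to 0 with each rat left out. The count at an unadjusted p below 0.05 moved by over 1.5 times also without the rat as a block, from 226 to 132 for age and from 390 to 236 for maze class, and to 340 for age in the Ion Proton table.

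The sign of some named genes turned. From 9000 up the values were Tmem212 -0.43, Spag17 -0.61, Ak7 -0.53, Cfap43 -0.42, Folr1 -0.49, Cacng5 -0.23, Rgs14 -0.27, Spock1 -0.12, Sfrp2 -0.16, Prkca -0.38, Calb1 0.16 and Adcy2 0.18. Below 9000 they were Grik4 0.34, Cpne4 0.33, Wfs1 -0.11, Ndst4 -0.97 and Gfap 0.17. Ndst4 was -0.21 without the 8 rats, -0.28 in the old unimpaired rats, -0.01 with quantile normalisation and -0.01 to 0.23 with each rat left out, the lowest without rat R9879. Wfs1 was -0.11 in the young rats. In the old impaired rats Gad1 was -0.029 and Gfap 0.033. Without the 8 rats Gfap was 0.034. Gfap was 0.004 without deeply sequenced rats and 0.02 in the Ion Proton table, and Aqp4 was -0.008 with the WT table. For age Rap2c was -0.051 in the WT table, and for maze class Pcdhb4 was -0.12 there and Trim65 0.09 in the Ion Proton table. Leaving out 1 rat ended a call for Adcy2 and Cpne4 only. Other alternatives ended a call for 71 of 118 results, mostly where 1 group or series was fitted alone. Within quantile normalisation 45.7% of calls were higher in CA3, against 50% in the values reported. The cause was not tested. Depth limits the precision of genes with few reads.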
